A study of Capsicum annuum with 78 samples.

Results

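In pepper leaves, 77 of the 35884 counted genes were silent after the mock treatment and reached their highest level after salicylic acid (SA). A gene was called mock-silent when each of the 18 mock libraries held at most 2 counts for it, which 13515 genes met. Counts were divided by the total of their library and scaled to CPM, counts per 1000000 counts. Of the mock-silent genes, 139 reached a mean of at least 2 CPM in some hormone and hour, and the highest mean lay in SA for 77 of them, in ET for 56, in MeJA for 4 and in ABA for 2. The 77 were all taken, since they were fewer than the limit of 150. Their level above mock and their rank of SA above the other hormones were therefore fixed by the choice, and all values of SA and mock below are a description without a test.

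Leaves of 6-week-old plants of the cultivar Bukang (Capsicum annuum) had been sprayed with 5 mM sodium salicylate (SA), 5 mM ethephon, which releases ethylene (ET), 100 μM methyl jasmonate (MeJA), 100 μM racemic abscisic acid (ABA) or distilled water (mock). The hormone groups were sampled at 1, 3, 6, 12 and 24 h and the mock group also at 0 h, with 3 biological replicates each, 78 libraries in all. A replicate pooled leaves of 4 plants, so its spread is that between pools and not between plants. Plants of each treatment were incubated apart from the others, so treatment and incubation cannot be told apart.

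SA is the plant hormone best known for defence against pathogens that feed on living tissue. In Arabidopsis it is sensed by NPR proteins, which act with TGA transcription factors to turn on defence genes such as the pathogenesis-related genes, and WRKY transcription factors form a further layer of that response. ET and MeJA act in wounding and in defence against pathogens that kill tissue, and ABA in drought and stomatal closure.

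The identifiers carry no gene names here: 0 of 35884 matched the reference gene table, so each gene is given by its identifier and no role is stated. The same gap left the tissue label unchecked against leaf marker genes. It also means that near-identical gene copies, between which reads can be split, could not be identified among the members. The SA libraries held 5002113 to 6589024 counts each, within the range of all libraries (4470356 to 8851726). A level of 3 counts, taken as the floor of detection, equals 0.455 to 0.5997 CPM in SA libraries and 0.359 to 0.622 CPM in mock libraries. This floor covers counting error only. CPM is not divided by gene length, so a higher CPM of one gene than of another says nothing about the number of their transcripts.

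As a group, the members were low at 1 h of SA, highest at 3 to 12 h and low again at 24 h. Their summed level was 64.2 ± 14.6 CPM at 1 h, 554 ± 81.9 CPM at 3 h, 825 ± 257 CPM at 6 h, 490 ± 15.3 CPM at 12 h and 93.3 ± 0.631 CPM at 24 h of SA (SD, n = 3 at each hour), against 1.15 to 2.33 CPM as the mean of any mock hour. The 3 libraries at 6 h of SA summed to 843, 559 and 1072 CPM, the widest spread of the 5 hours. The libraries of 3, 6 and 12 h all lay above those of 1 and 24 h. In these leaf samples, more cells that express a gene and more RNA of it per cell cannot be told apart.

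**Figure D1:**
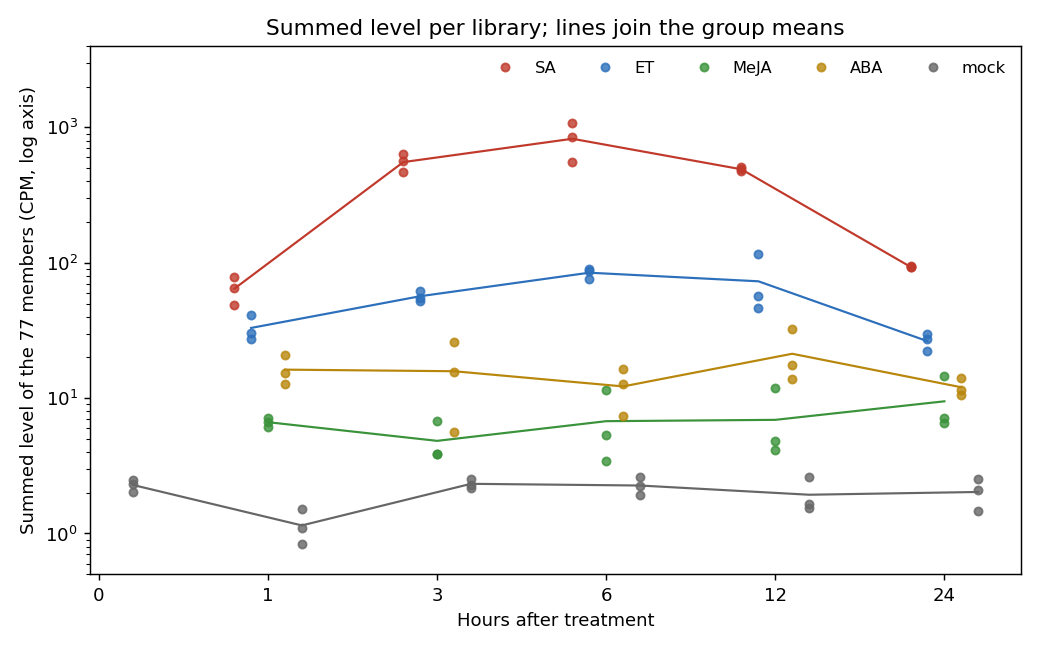
Summed CPM of the 77 members in each library (points) with the mean of 3 replicates (line), by hours after treatment, on a log axis. The SA means were between 64.2 and 825 CPM, those of ET between 26.4 and 84.5 CPM, and mock stayed at 1.15 to 2.33 CPM, as the choice of members required.

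Few members carried much of this sum. The 4 with the highest CPM gave 54.2%, 50.3%, 56.0%, 30.3% and 19.6% of it at 1, 3, 6, 12 and 24 h. Without them the sums were 29.4, 276, 363, 342 and 75.0 CPM, with 6 and 12 h nearly level. The highest SA mean of a member had a median of 5.35 CPM. It was at least 100 CPM for 3 members, 10 to 100 CPM for 18, 5 to 10 CPM for 20 and under 5 CPM for 36. The 3 libraries of the highest hour all held over 2 counts for 76 members and at least 10 counts for 69. The exception was CA.PGAv.1.6.scaffold2849.1, with 0.177, 2.27 and 3.83 CPM at 6 h and a single count in the lowest of these libraries.

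The mock libraries held very few counts of these genes. Over all 18 mock libraries, with 119395407 counts in total, a member had between 0 and 15 counts, with a median of 2. No mock count at all was found for 23 members, the highest mock count was 1 for 20 members and 2 for 34.

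**Figure D2:**
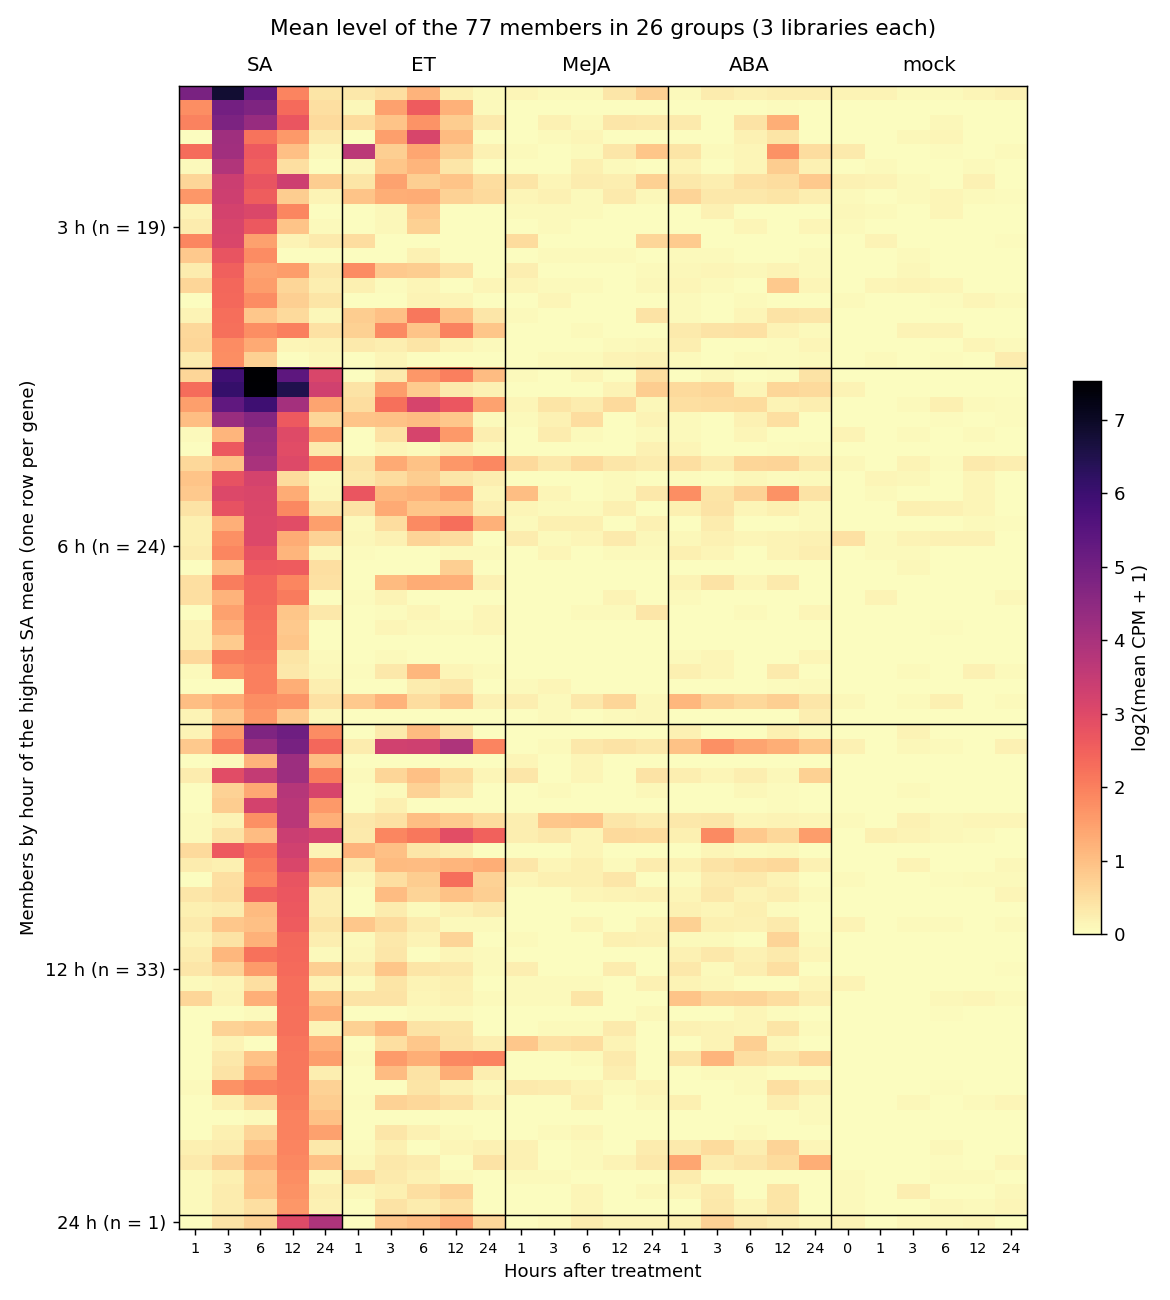
Mean level, as log2(mean CPM + 1), of each of the 77 members in every treatment and hour, 3 libraries each, members grouped by the hour of their highest SA mean. SA columns are filled from 3 to 12 h, some members show a weaker level in ET, and most cells of MeJA, ABA and mock are at or near 0.

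Detection followed the same course. Over 2 counts in all 3 SA libraries were held by 11 members at 1 h, by 48 at 3 h, by 64 at 6 h, by 61 at 12 h and by 20 at 24 h. Only 2 members passed this at all 5 hours, 14 at 4 hours, 26 at 3 hours, 26 at 2 hours, 8 at 1 hour and 1 (CA.PGAv.1.6.scaffold2849.1) at none. The mean at 1 h was under 10% of the highest SA mean for 63 members, and the mean at 24 h for 54.

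Grouped by the hour of their highest SA mean, 0 members were highest at 1 h, while 3 h had 19 members, 6 h had 24, 12 h had 33 and 24 h had 1. The 3 libraries of the highest hour lay above all other 12 SA libraries for 44 of the 77 members (13, 9, 21 and 1 in the groups of 3, 6, 12 and 24 h). Over all genes with an SA mean of at least 2 CPM the share was 34.4%. The members were chosen on a high SA mean, so nothing is read from this count, and for the remaining 33 members the hour of the maximum is uncertain within the replicate spread.

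The early group of 19 was by definition highest at 3 h, so lower means at 6 h follow from the grouping. Its median member had 9.18% of its highest SA mean at 1 h and 45.1% at 6 h, then 11.8% at 12 h and 1.74% at 24 h. Single members still had up to 87.8% at 6 h and up to 97.1% at 12 h. The member of highest CPM in this group was CA.PGAv.1.6.scaffold418.7. Its SA levels were 28.1, 34.2 and 22.9 CPM at 1 h, 125, 120 and 91.5 CPM at 3 h, 44.9, 26.7 and 40.5 CPM at 6 h, 2.88, 3.64 and 1.93 CPM at 12 h and 0.200, 0.386 and 0.347 CPM at 24 h. The libraries of 3 h did not overlap with any other hour, and those of 1 and 6 h overlapped. Mock held 11 counts of this gene over 18 libraries, and the highest ET mean was 1.30 CPM. At 24 h of SA each library was back at 1 or 2 counts.

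The group of 24 highest at 6 h held the members of highest CPM. Its median member had 3.06% of its highest SA mean at 1 h and 38.5% at 3 h, then 30.7% at 12 h and 3.64% at 24 h. CA.PGAv.1.6.scaffold1003.17, the highest of all, had 0 counts in every mock library. It reached 1.35, 0.348 and 0 CPM at 1 h of SA, 64.7, 58.8 and 54.6 CPM at 3 h, 183, 126 and 242 CPM at 6 h, 42.2, 41.0 and 40.7 CPM at 12 h and 9.80, 6.56 and 6.60 CPM at 24 h. No library of one hour overlapped with another hour, and 24 h was still above 1 h. CA.PGAv.1.6.scaffold211.4 followed closely at 6 h, with 168, 117 and 254 CPM in SA and 2 counts over all mock libraries. It kept more of its level at 12 h than CA.PGAv.1.6.scaffold1003.17 did, with 86.3, 89.4 and 89.6 CPM, and had 9.996, 8.49 and 7.47 CPM at 24 h.

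The late group of 33 was the most numerous and lower in CPM. The median of its highest SA means was 4.07 CPM, against 6.55 CPM in the 6 h group and 7.83 CPM in the 3 h group. Its median member had 1.40% of its highest SA mean at 1 h and 7.09% at 3 h, then 33.0% at 6 h and 14.9% at 24 h. In CA.PGAv.1.6.scaffold837.29, its leading gene, SA libraries held 24.3, 15.6 and 39.3 CPM at 6 h, 30.5, 32.9 and 34.2 CPM at 12 h and 1.80, 2.32 and 3.47 CPM at 24 h. The libraries of 6 and 12 h overlapped, so which of the 2 hours was higher is uncertain, and all 6 lay above those of 24 h. The gene had 0 counts in all MeJA libraries and 2 in all mock libraries.

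One member was highest at the last hour sampled. CA.PGAv.1.6.scaffold996.1 had 0 counts in each SA library at 1 h, 6.71, 5.01 and 9.07 CPM at 12 h and 15.8, 14.3 and 11.3 CPM at 24 h. The libraries of 24 h lay above those of all earlier hours, and no later hour was sampled.

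**Figure D3:**
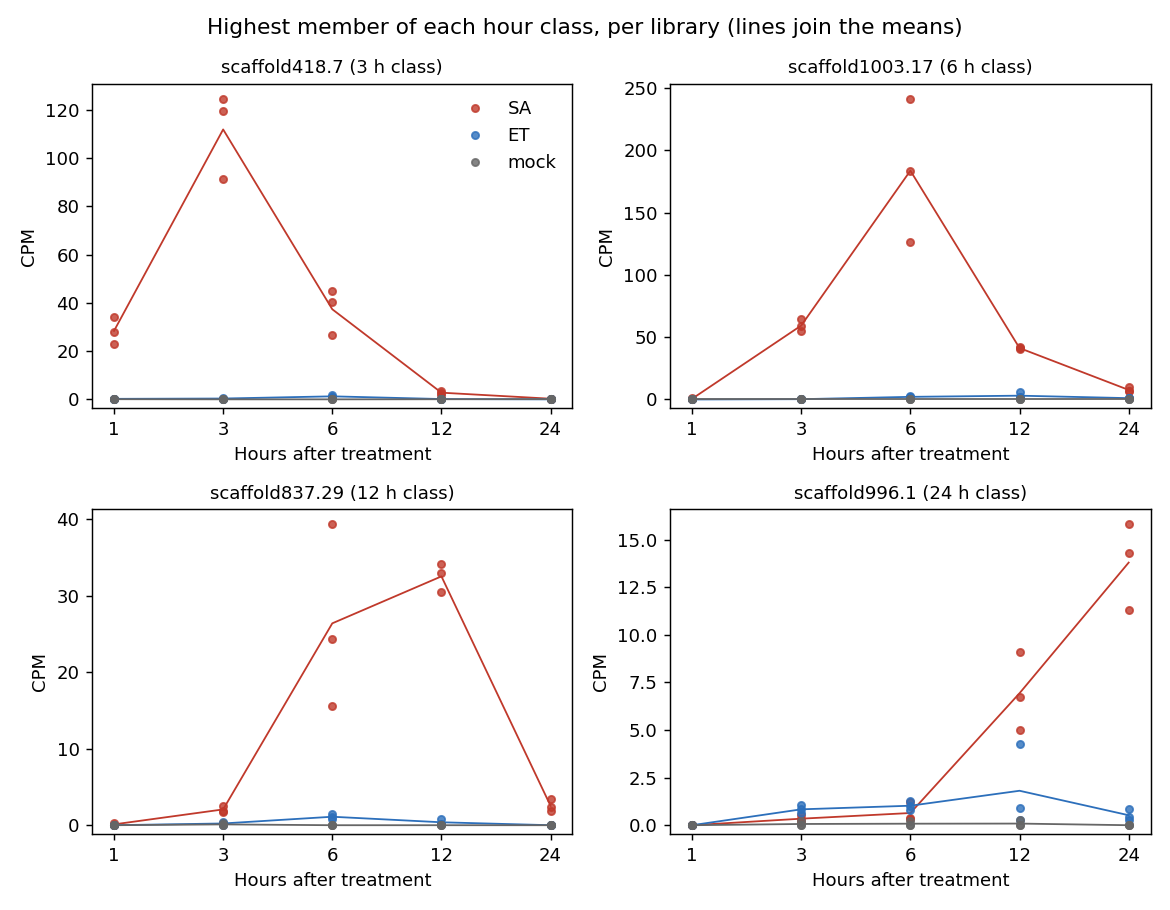
CPM by hours after treatment of the leading member of each hour group. The upper row holds the genes highest at 3 and 6 h, the lower row those highest at 12 and 24 h. Single libraries are points and the mean of 3 is a line, for SA, ET and mock. The SA maxima average 112, 184, 32.5 and 13.8 CPM, while ET stays at or under a mean of 3.04 CPM in all 4 genes.

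The 3 replicates of an SA hour did not deviate evenly. At 6 h, 72 members had a mean of at least 0.5 CPM, of which 45 were highest in replicate 3 and 52 lowest in replicate 2. At 3 h, 34 of 54 such members were highest in replicate 1 and 32 lowest in replicate 3. These counts were not made over all genes, so a shift of whole libraries was not tested. The coefficient of variation at a member's highest hour had a median of 26.2% and reached 93.0% in CA.PGAv.1.6.scaffold1162.2, with 1.42, 2.62 and 8.87 CPM.

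The choice of members was repeated without each replicate number in turn, and the libraries left out were then read. Without replicate 1, 2 or 3 the same rule gave 92, 102 and 97 genes, which held 71, 77 and 76 of the 77 members. In the replicate that had not been used, 90, 101 and 97 of these genes had over 2 counts at the SA hour named by the others, and 80, 80 and 88 had at least 2 CPM. That SA library lay above every mock library of its replicate for 91, 102 and 96 of these genes. Over all genes with an SA mean of at least 2 CPM in the other replicates, the shares were 54%, 52.5% and 48.7%. It lay above every ET, MeJA and ABA library of its replicate for 86, 93 and 88 genes, against 23.4%, 18% and 23.4% of all genes. The hour of the SA maximum was the same for 73, 79 and 71 genes, against 66.4%, 65.2% and 65.9% of all genes. In the mock libraries left out, 79, 90 and 79 of the genes were again at 2 counts or fewer. The genes behind the shares of all genes were not chosen for silence in mock or for a maximum in SA. Higher shares in the lists thus follow from their choice wherever replicates resemble each other, and all of these values are a description without a test.

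Some of the members were also detected in ET. A mean of at least 2 CPM was reached by 17 members in some ET hour, by 4 in ABA and by 0 in MeJA. By a criterion that does not depend on the mean, over 2 counts in all 3 libraries of an hour, ET detected 42 of the 77 members, while among all 13515 mock-silent genes it detected 1.38%. The same criterion was met in MeJA by 1 member (all mock-silent genes: 0.17%) and in ABA by 13 members (all mock-silent genes: 0.614%). The rule capped the other hormones at the SA maximum but set no lower limit to them. The members share high SA levels and many mock-silent genes were never detected in any library (7868 of the 35884 genes had no count at all), so these shares are given side by side and nothing more is read from them.

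The highest ET mean of a member was at the median 10.5% of its highest SA mean, with a range of 0 to 87.9%. The corresponding medians were 2.36% in MeJA and 3.62% in ABA. ET exceeded 50% for 10 members, ABA for 1 and MeJA for 0. ET gave no count of 4 members, MeJA of 12 and ABA of 4. In 13 members no ET, MeJA or ABA library held over 2 counts, and among these CA.PGAv.1.6.scaffold1077.20, picked after its values were seen, had the highest SA level. It had 18.2, 19.6 and 15.6 CPM at 12 h of SA, 0 counts in all 15 ET and all 15 ABA libraries and 0 in mock.

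**Figure D4:**
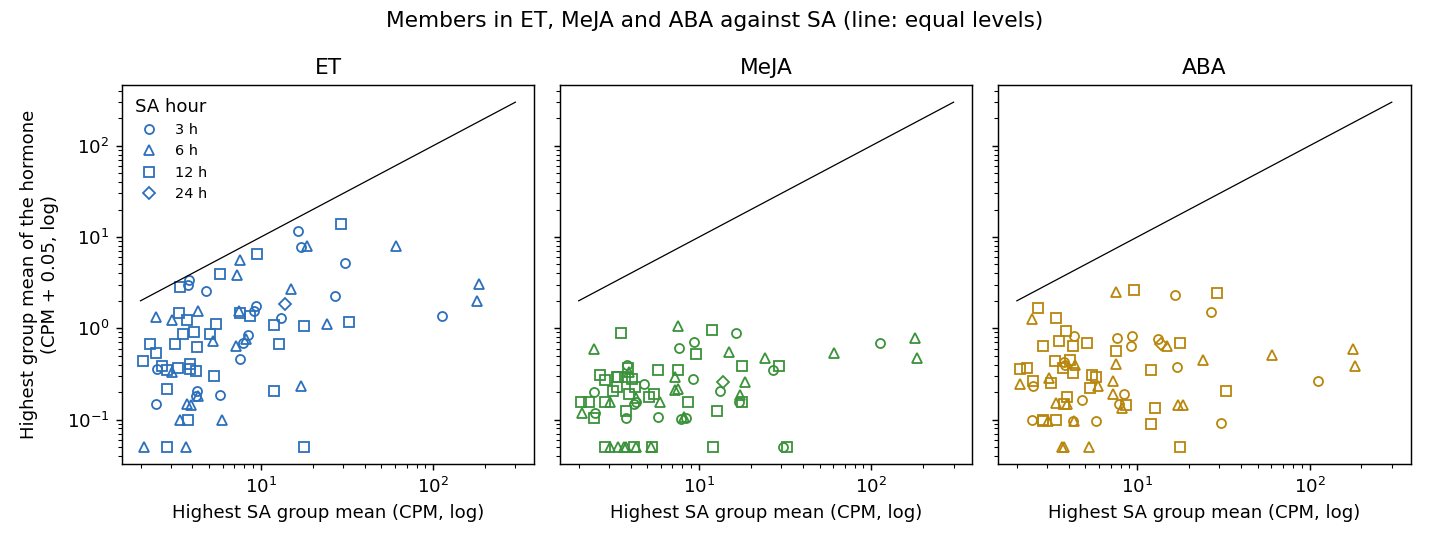
Highest group mean of each member in ET, MeJA and ABA (vertical, CPM + 0.05) against its highest SA mean (horizontal, CPM), both on log axes, each point 1 of 77 members. ET points reach 13.8 CPM and 10 of them exceed 50% of the SA level, while MeJA points stay at or under 1.02 CPM and ABA points at or under 2.57 CPM.

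The hour of the highest mean in ET was set beside that in SA. Among the 42 members detected in ET, the ET maximum came at an earlier hour than that of SA in 16, at the same hour in 12 and at a later hour in 14. Of the 12 such members in the 3 h group, 8 were highest at 6 h of ET. Overlap between ET libraries of different hours was not checked, and the SA hour was itself uncertain for many members. Over all members the median highest ET mean was 0.807 CPM, against a floor of 0.356 to 0.466 CPM in ET libraries. No order of the hours is therefore read from these counts. The summed level of all members in ET was 33.0 ± 7.42 CPM at 1 h, 56.6 ± 5.04 CPM at 3 h, 84.5 ± 7.01 CPM at 6 h, 73.0 ± 37.6 CPM at 12 h and 26.4 ± 3.89 CPM at 24 h (SD, n = 3). The spread at 12 h came with replicate 3, at 115.9 CPM against 56.9 and 46.1 CPM in the others. Of 30 members with a mean of at least 0.5 CPM, 25 were highest in that library. The same count was not made over all genes, so a shift of the whole library was not tested. Without that library the ET maximum came earlier than that of SA in 18 members, at the same hour in 12 and later in 12, the median ET share of the SA level was 9.38% and 9 members exceeded 50%. The members at 2 CPM (17) and the members detected (42) did not change in number.

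CA.PGAv.1.6.scaffold1366.11 had the highest ET mean of the members, 13.8 CPM at 12 h, and this rank rested on replicate 3. Without that library its highest ET mean was 8.98 CPM at 6 h, below the 11.6 CPM of CA.PGAv.1.6.scaffold420.4 at 1 h. In single libraries CA.PGAv.1.6.scaffold1366.11 had 9.99, 6.87 and 9.13 CPM at 3 h, 6.92, 10.2 and 9.85 CPM at 6 h, 9.32, 6.92 and 25.3 CPM at 12 h and 2.23, 2.98 and 3.18 CPM at 24 h of ET. In SA it was highest at 12 h, with 31.5, 25.6 and 29.9 CPM. The ET libraries of 12 h lay below those of SA, the closest being ET replicate 3. Over the ABA libraries it was uneven, with 0.383, 1.11 and 5.64 CPM at 3 h and 3.36, 1.47 and 0.253 CPM at 6 h.

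Of the 42 members detected in ET, 5 were highest at 1 h of ET, an hour at which no member was highest in SA. Overlap between ET hours was not checked, so no order of hours is read from this count. CA.PGAv.1.6.scaffold473.85, CA.PGAv.1.6.scaffold170.15 and CA.PGAv.1.6.scaffold837.28 were among the 5, with ET means of 2.53, 1.30 and 0.817 CPM at 1 h. The others follow. CA.PGAv.1.6.scaffold420.4, named after its values were seen, had 9.12, 10.9 and 14.9 CPM at 1 h of ET and 0.375, 0.948 and 0.749 CPM at 3 h of ET. In SA it had 3.20, 5.04 and 3.77 CPM at 1 h and 21.0, 13.8 and 14.5 CPM at 3 h. The ET level at 1 h thus lay above the SA level of the same hour in every library, although the SA maximum was the higher of the maxima. CA.PGAv.1.6.scaffold755.1 had 4.31, 4.97 and 7.49 CPM at 1 h of ET, 0.141, 1.41 and 1.51 CPM at 1 h of MeJA, the highest MeJA mean of any member, and 3.16, 2.49 and 1.71 CPM at 1 h of ABA. Its SA maximum came at 6 h, with 7.28, 4.72 and 10.6 CPM, and its mean at 3 h was 96.6% of that at 6 h.

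ABA and MeJA levels were low. The highest ABA mean belonged to CA.PGAv.1.6.scaffold890.66, with 0.767, 2.92 and 4.01 CPM at 3 h of ABA, against 11.02, 5.46 and 12.2 CPM at 12 h of SA. All 3 ABA libraries of that hour lay below the SA libraries of 12 h. The single member that MeJA detected in all 3 libraries of an hour was CA.PGAv.1.6.scaffold973.10, with 1.27, 0.783 and 0.453 CPM at 1 h, and the lowest of these equals 3 counts. In SA it reached 3.35, 1.21 and 5.98 CPM at 12 h.

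Whether the members' levels differed between ET, MeJA and ABA was tested with SA and mock left out, in the quasi-likelihood test of edgeR, with p-values adjusted after Benjamini and Hochberg over all genes tested. The fit held 45 libraries in 15 groups of hormone and hour and averaged the 5 hourly differences. Its filter on low counts left 19117 genes, among them 23 of the 77 members, which passed on their ET, MeJA or ABA counts. A member could enter through the hormone in which it was high, so the filter largely set the direction of these counts and nothing is read from them. In ET against ABA, 13 of these 23 were higher in ET (all genes: 32.8%) and 1 was lower (35%). In ET against MeJA, 17 were higher in ET (33.1%) and 0 were lower (33.8%). In MeJA against ABA, 0 were higher in MeJA (13.6%) and 7 were lower (15.5%). A difference of any kind at any hour was called for 23 of 23 (81.5%). Without the filter the same fit took in 76 members and 27253 genes. It then called 19 members higher (23.4%) and 3 lower (25.3%) in ET than in ABA, 26 higher (24%) and 0 lower (23.8%) in ET than in MeJA, 0 higher (8.2%) and 11 lower (10.9%) in MeJA than in ABA, and 44 for any difference (58.1%). The share of members with any difference was thus near that of all genes.

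The average of 5 hours has no finite log mean where a gene has 0 counts in all 3 libraries of an hour, which was the case for 59 of the 77 members in ET or ABA, for 68 in ET or MeJA and for 67 in MeJA or ABA. Of the 23 members that passed the filter it touched 11, 16 and 16. Where both hormones of a comparison have 0 counts at an hour, the p of the average can come out near 1. In the same order of comparisons, the edgeR p was near 1 for 4, 6 and 9 of these 23 members. Members with such hours could go uncalled with or without the filter, so the counts of members called may be too low. A model with additive terms for hormone and hour and no filter beyond 1 count, added after the data were seen, took in the same 76 members. The member left out was CA.PGAv.1.6.scaffold1684.13, which had 0 counts in all 45 libraries. In that model the edgeR test called 35 members higher (all genes: 21.9%) and 3 lower (23.7%) in ET than in ABA. It called 46 higher (22.6%) and 0 lower (22.6%) in ET than in MeJA, and 0 higher (4.19%) and 11 lower (6.12%) in MeJA than in ABA. The median log2 fold change of the 76 members was 1.28 in ET against ABA, 2.25 in ET against MeJA and -0.76 in MeJA against ABA, while the medians of all genes were -0.02, -0.01 and -0.02. The members were near 0 in mock by choice, so a hormone could raise them but hardly lower them. Genes outside the list were not chosen this way, so their shares and medians are given side by side only. The model also takes the difference between hormones to be the same at every hour. The 3 comparisons share their libraries in pairs and are not independent of each other. Without ET 12 h replicate 3, the counts of members called were 36, 44 and 11, against 38, 46 and 11 with it.

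CA.PGAv.1.6.scaffold837.12 had the largest rise in ET over ABA. Its ET libraries held 1.25, 1.90 and 2.25 CPM at 3 h, 5.51, 3.75 and 6.14 CPM at 6 h and 1.40, 1.18 and 1.46 CPM at 12 h, while the 15 ABA libraries held 1 count together and the 15 MeJA libraries 0. All 9 ET libraries of these hours lay above every ABA and MeJA library. The pooled ET level was 194 times that of ABA, with an exact 95% interval of 34.4 to 7698 from counting error only, and at least 51.3-fold higher than MeJA at a floor of 3 counts over the 15 libraries. The edgeR test gave a log2 fold change of 4.79 (SE 0.90, adjusted p = 4.44e-05) over ABA and 5.09 (SE 0.94, adjusted p = 4.13e-05) over MeJA. These fitted values and their SE depend on the prior count. The gene passed the filter on its ET counts alone and was picked as the largest rise, so nothing further is read from them. Without replicate 3 of every group both log2 fold changes were 4.09 with an edgeR adjusted p of 0.9999 or higher, and at 1 and 24 h the libraries then left held 0 counts in ET, MeJA and ABA. In SA the gene was highest at 3 h, with 33.2, 38.0 and 21.2 CPM, and had 29.3, 14.2 and 35.7 CPM at 6 h, and mock held 0 counts.

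CA.PGAv.1.6.scaffold1230.13 was the second in ET over ABA. It had 3.70, 3.53 and 4.24 CPM at 12 h of ET, and the 15 ET libraries held 178 counts against 6 in the 15 ABA libraries, a pooled ratio of 30.6 (exact 95% interval 13.8 to 84.5, counting error only). The edgeR test gave a log2 fold change of 4.35 (SE 0.90, adjusted p = 6.56e-05), against 3.86 without replicate 1 (edgeR adjusted p = 0.9999), where the libraries left at 1 h held 0 counts in ET and ABA. In ET over MeJA the largest rise of the filtered fit belonged to CA.PGAv.1.6.scaffold186.70, with 1.87, 2.25 and 3.59 CPM at 3 h of ET. Its SA maximum was 4.31, 3.15 and 3.79 CPM at 3 h, while its highest ET mean was 2.90 CPM at 12 h. That mean includes replicate 3, the library with the highest summed ET level. Without that library the log2 fold change of the gene over MeJA was 5.69. The MeJA libraries held 1 count of it in all, a pooled ratio of 141 (exact 95% interval 24.9 to 5596). Its log2 fold change was 5.81 (SE 0.64, edgeR adjusted p = 8.02e-10). MeJA had hours with 0 counts of the gene, so this fitted value and its SE depend on the prior count. In the additive model without a filter the value was 5.73, below the 6.49 of CA.PGAv.1.6.scaffold837.12. CA.PGAv.1.6.scaffold1230.13 and CA.PGAv.1.6.scaffold186.70 passed the filter on their ET counts and were picked for large rises, so nothing further is read from the tests.

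One member stood lower in ET than in ABA in the filtered fit. CA.PGAv.1.6.scaffold282.27 had 1.82, 1.44 and 1.57 CPM at 1 h and 1.51, 1.22 and 1.501 CPM at 24 h of ABA, and 0 counts in all 3 ET libraries of 12 h. Over 15 libraries each, ET held 20 counts and ABA 89. The log2 fold change was -2.12 (SE 0.45, edgeR adjusted p = 8.70e-05), and the SA maximum was 2.24, 2.43 and 3.28 CPM at 12 h. This gene passed the filter on its ABA counts and was picked as the largest fall, so nothing further is read from the test. The other 2 lower members of the additive model were CA.PGAv.1.6.scaffold575.84 (log2 fold change -1.63, SE 0.68, edgeR adjusted p = 0.0445) and CA.PGAv.1.6.scaffold866.22 (log2 fold change -1.35, SE 0.55, edgeR adjusted p = 0.0404), both near the threshold of 0.05.

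In MeJA against ABA the largest falls were in CA.PGAv.1.6.scaffold676.28 and CA.PGAv.1.6.scaffold1366.11. The MeJA libraries held 5 counts of CA.PGAv.1.6.scaffold676.28 and the ABA libraries 63, and its log2 fold change was -3.73 (SE 0.71, edgeR adjusted p = 0.000115). Its ABA level was uneven, with 0.256, 1.81 and 1.63 CPM at 3 h. For CA.PGAv.1.6.scaffold1366.11 the log2 fold change was -3.44 (SE 0.71, edgeR adjusted p = 0.000258). Without replicate 3 it was -2.65 (edgeR adjusted p = 0.9999), where the libraries left at 1 h held 0 counts in MeJA and ABA. In the additive model without a filter and with all replicates it was -3.06 (SE 0.64, edgeR adjusted p = 0.000965).

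The members lay on 71 scaffolds of the reference, and 11 of them shared 5 scaffolds. Scaffold 837 carried 3 members among its 32 counted genes, and scaffolds 211, 418, 473 and 478 carried 2 each. Consecutive numbers occurred in 2 pairs, CA.PGAv.1.6.scaffold837.28 with CA.PGAv.1.6.scaffold837.29 and CA.PGAv.1.6.scaffold478.7 with CA.PGAv.1.6.scaffold478.8. In the first pair both were highest at 12 h of SA, at 5.09 ± 0.836 and 32.5 ± 1.86 CPM (SD, n = 3). In the other both were highest at 6 h, at 8.17 ± 2.84 and 3.75 ± 0.826 CPM (SD, n = 3). For CA.PGAv.1.6.scaffold837.29 and CA.PGAv.1.6.scaffold478.7 the libraries of the highest hour did not all lie above the other SA libraries. The hour of their maximum, and so the shared hour of each pair, is uncertain.

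Of the 131 genes numbered next to a member that were not members themselves, 29 (22.1%) had an SA mean of at least 2 CPM that was over 2 times the mock mean of the same hour. Among all 35807 genes outside the list, 3530 (9.86%) did. The order of the numbers along a scaffold was not checked, and overlapping genes were not identified, so reads shared between neighbours were not tested. The neighbour CA.PGAv.1.6.scaffold1003.18 of the highest member, picked after its values were seen, was also highest at 6 h of SA, with a mean of 611 CPM against at most 111 CPM as the mean of a mock hour. It failed the choice on its mock counts, of which one library held 869.

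The last member, CA.PGAv.1.6.scaffold516.10, had a mean of 2.08 CPM at 12 h of SA, from 3.19, 0.911 and 2.12 CPM, and the first gene outside, CA.PGAv.1.6.scaffold575.67, had 1.99 CPM. A further 58 mock-silent genes highest in SA lay between 1 and 2 CPM. Another 17 genes met the level but had 3 counts in a mock library, led by CA.PGAv.1.6.scaffold1045.34 at 46.2 CPM.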

How the data were processed

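RNA-seq reads of 78 libraries were trimmed by the authors with cutadapt 1.15 and Trimmomatic 0.38, checked with FastQC 0.11.8, aligned by HISAT2 against version 1.6 of the CM334 genome and counted per gene by HTSeq 0.11.2. The deposited values are these raw counts, 1 column per library, with no column left without a sample. The libraries were strand-specific, and the strand setting of the counter and its treatment of multiply mapped reads are not given in the sources used here. CM334 is not the cultivar sampled, and genes that diverge between the 2 may be undercounted. Groups, hours and replicates came from the sample titles, and doses from the study's methods.

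CPM values were counts over the column total. ET, MeJA and ABA were compared in edgeR 4.0.16 (R 4.3.3, filterByExpr, TMM, quasi-likelihood F test, Benjamini-Hochberg, threshold 0.05). The fit was also run on simulated data in which only well-counted genes were changed, equally at all hours. That run does not cover members with few counts or with hours at 0 counts. SE is the log2 fold change over the square root of F. The alternatives were DESeq2 1.42.0, RLE scaling, no filter, the replicate block, all libraries in one fit, left-out replicates, other mock and CPM limits, thinned counts and, added after the data were seen, an additive model and the loss of ET 12 h replicate 3. The members and lists were chosen with earlier results of these data known. Genes were named by rule: the 2 highest in SA, the highest of each hour group, the 2 largest called rises and falls per contrast, the highest in ET, MeJA and ABA, and those at the limits. Others are marked in the text, and those that complete a count of 5 or fewer are named for that. P-values measure the spread between biological replicates of pooled plants.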

Additional observations from a re-analysis of the deposited data

How the results depend on the processing

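The choice of members depended on its limits. A mock maximum of 0, 5 or 10 counts gave 23, 152 or 287 genes, a minimum of 1 or 5 CPM gave 135 or 41 genes, and without 1 replicate number the list held 92 to 102 genes. Members detected in ABA numbered 5 when over 5 counts were asked for and 7 in counts thinned to the smallest library, against 13, and those in MeJA 0 in both, against 1. The 24 h group held 2 members on the TMM scale and 1 to 2 without 1 replicate.

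Of the members called in ET against ABA, ET against MeJA and MeJA against ABA (14, 17 and 7), a fit of all 78 libraries gave 23, 27 and 12, no filter 22, 26 and 11, the additive model without a filter 38, 46 and 11, and that model without ET 12 h replicate 3 36, 44 and 11. More members were tested in each of these fits (76 against 23). Any difference was called for 49 members in the fit of all libraries and for 44 without a filter. DESeq2 called 19, 22 and 8. Leaving out a replicate number gave 12 to 15, 13 to 16, 3 to 7 and, for any difference, 22 to 26, with MeJA against ABA lowest (3) without replicate 3.

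The replicate block gave 14, 17, 7 and 23 calls and changed none of these counts. Little pairing by replicate number was seen among the ET, MeJA and ABA libraries. Deviations of same-numbered libraries had mean correlations of 0.0057 (ET and ABA), -0.0022 (ET and MeJA) and -0.013 (MeJA and ABA). Of 45 pairs, 1 exceeded 0.1, and the lowest correlation was -0.202 (ET and MeJA, replicate 2 at 12 h). SA and mock libraries were not examined for pairing. Over all genes, 5564 calls in MeJA against ABA became 3410 without replicate 2 and 3168 in the additive model (2811 with no filter, 2815 also without ET 12 h replicate 3). Of 220 alternative values, 186 kept their direction and side of the threshold, or, as counts, stayed within 1.5 times. Named genes, which were picked for large effects, made up 84 of these values, and 80 of them were kept. Of the 136 counts of genes 106 were kept, among them 41 of the 45 that counted all genes called.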
